A study of Mus musculus with 5 samples.

Results

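Zinc storage and zinc transport in the mouse kidney were followed through 6 genes, chosen by name from the 17389 genes counted. *Mt1* and *Mt2* encode metallothioneins, *Slc30a1* encodes the zinc exporter ZnT1, and *Slc39a1*, *Slc39a5* and *Slc39a8* encode the zinc importers ZIP1, ZIP5 and ZIP8. All 6 were present in the count matrix. The authors assigned 19 cell types, and levels were taken in each of the 5 libraries where a type held at least 20 cells. Parietal epithelium (PE) reached this number in no library, and only the types named below are described. The libraries came from dissociated kidneys of adult FVB/Ant mice, captured in droplets, with each RNA molecule counted once by its unique molecular identifier (UMI). The *Fame* (*Ccdc198*) knockout, made by Cas9 editing of fertilized eggs, was sampled in KO female, KO male and KO mix, and untreated wild type littermates in WT female and WT mix, where mix stands for both sexes pooled. Mice carried no other allele or treatment named in the labels, and a wild type library of male cells alone was not among these libraries, so sex and genotype are partly confounded. How many mice each library holds is not stated, so p-values of comparisons between libraries measure the spread between libraries, which may be technical.

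The libraries held 1794 to 3567 cells and 9791091 to 15950717 UMIs, with a median of 2413.5 to 3016.0 UMIs per cell. By the annotation of the authors, KO female, KO male and WT female were sequenced in run 2, and both mixed libraries in run 3. The median share of mitochondrial UMIs was 12.6% to 15.3% in the libraries of run 2 and 28.4% to 29.4% in those of run 3, and cells labelled as red blood cells (RBC) made up 8.92% to 14.5% in run 2 and 0.328% to 1.15% in run 3. *Fame* mRNA, entered as *ccdc198*, was counted in every library, at 148, 127 and 83.1 CPM (the UMIs of a gene scaled to a common total, here that of the library and below that of the cell type within a library) in KO female, KO male and KO mix, against 196 and 71.5 CPM in WT female and WT mix. The edit adds stop codons near the start of the coding sequence, which a count of UMIs does not show, so these levels do not check the genotype labels. Of all cells, 50 shared their barcode with a cell of another library. All defining markers on each list were detected in the cell type that carries the label, and GL sc had no list. PT1 and PTf were the weakest matches, each with 3 of 6 proximal tubule markers above every type outside the proximal tubule, and the summed markers were lower in PT1, at 2568 CPM, than in PTf, at 5647 CPM.

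Metallothioneins are small proteins rich in cysteine that bind zinc and copper, and also cadmium, and so buffer the free metal of the cell. Zinc raises their transcription through the factor MTF1, which binds short metal response elements in the promoter, and glucocorticoids raise it too. Carriers of the SLC30 (ZnT) family lower cytosolic zinc by moving it out of the cell or into vesicles, whereas those of the SLC39 (ZIP) family bring it into the cytosol. ZnT1 is the exporter of the plasma membrane and is itself a target of MTF1. ZIP1 is a broadly expressed importer, ZIP5 sits on the basolateral side of polarised epithelia, and ZIP8 carries manganese and cadmium besides zinc. The kidney, and the proximal tubule in particular, is known as the organ in which cadmium bound to metallothionein accumulates.

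In the GRCm38 annotation (GENCODE M21) *Mt2* lies at chr8:94172664-94173568 and *Mt1* at chr8:94179082-94180327, both on the plus strand with 5513 bases between them. *Slc30a1* lies at chr1:191906767-191913247, *Slc39a1* at chr3:90248172-90253612 and *Slc39a8* at chr3:135825279-135888572 on the plus strand, and *Slc39a5* at chr10:128395931-128401229 on the minus strand. *Slc39a5* overlaps *Ankrd52* on the opposite strand, *Mt2* overlaps *Gm45774*, *Slc30a1* overlaps *1700034H15Rik*, and *Slc39a8* overlaps *4933401H06Rik*, *Gm43429* and *Gm43428*. The sources used here do not say whether counting used strand, so reads of these pairs may not be told apart. The longest exact stretch shared by the *Mt1* and *Mt2* transcripts is 20 bases, of 1085 and 511 bases in all. Promoters of the metallothioneins and of *Slc30a1* are shown because zinc acts on these genes through MTF1. They are from RefSeq (GRCm38.p6) and span 250 bases before to 50 bases after the start, at chr8:94178839-94179138 for *Mt1*, chr8:94172368-94172667 for *Mt2* and chr1:191906531-191906830 for *Slc30a1*, all on the plus strand. Capitals mark the core of the metal response element, TGCACNC or TGCGCNC on either strand, and the matches do not overlap.
Mt1: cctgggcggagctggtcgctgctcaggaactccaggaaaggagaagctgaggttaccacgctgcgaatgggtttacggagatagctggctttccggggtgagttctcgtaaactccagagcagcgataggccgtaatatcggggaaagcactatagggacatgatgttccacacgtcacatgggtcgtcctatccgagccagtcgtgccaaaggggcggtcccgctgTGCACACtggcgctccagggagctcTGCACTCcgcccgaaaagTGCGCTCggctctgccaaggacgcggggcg
Mt2: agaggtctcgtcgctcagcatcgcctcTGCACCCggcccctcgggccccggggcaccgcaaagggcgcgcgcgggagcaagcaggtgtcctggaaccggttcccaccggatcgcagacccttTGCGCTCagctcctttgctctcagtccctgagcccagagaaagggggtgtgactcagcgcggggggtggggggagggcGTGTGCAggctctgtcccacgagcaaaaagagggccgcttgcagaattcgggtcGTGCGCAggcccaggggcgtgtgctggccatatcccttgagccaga
Slc30a1: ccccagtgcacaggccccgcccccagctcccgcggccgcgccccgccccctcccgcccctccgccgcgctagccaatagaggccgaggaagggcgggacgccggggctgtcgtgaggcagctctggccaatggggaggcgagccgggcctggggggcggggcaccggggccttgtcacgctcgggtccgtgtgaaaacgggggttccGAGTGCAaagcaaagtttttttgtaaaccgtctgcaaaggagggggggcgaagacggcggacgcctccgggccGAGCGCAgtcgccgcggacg
The core was found 3 times in the *Mt1* window, 4 times in that of *Mt2* and 2 times in that of *Slc30a1*. Of 32851 promoters of the same length, 25.7% held at least 1 match, 7.11% at least 2, 1.97% at least 3 and 0.517% at least 4. The *Slc39a1* window held no match, and *Slc39a5* and *Slc39a8*, with 2 annotated promoters each, held 1 match in one of them. A match is a description of the letters and not a measured binding site.

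Among the 10 cell types that all 5 libraries held, the metallothioneins were highest in the distal nephron. In the loop of Henle (LOH), *Mt1* reached 2863, 2009 and 1039 CPM of the cell type in KO female, KO male and KO mix, and 3333 and 1220.0 CPM in WT female and WT mix. In the distal convoluted tubule (DCT) it stood at 2258, 2336 and 1047 CPM in the 3 KO libraries and at 2541 and 1569 CPM in the 2 WT libraries. LOH and DCT did not differ beyond the spread of the libraries, since LOH was the higher in 2 of 5. Principal cells of the collecting duct (CD PC) averaged 767 ± 318 CPM and intercalated and transitional cells (CD IC/CD Trans) 778 ± 195 CPM (SD, n = 5 libraries each), below DCT in 5 of 5 libraries and indistinguishable from each other. The convoluted proximal tubule (PTc) followed with 709, 171 and 332 CPM in the KO libraries and 961 and 178 CPM in the WT libraries. The other proximal clusters averaged 339 ± 275 CPM in PT1, 339 ± 196 CPM in PT2 and 198 ± 214 CPM in the straight segment (PTs), glomerular endothelium (GL endo) 263 ± 218 CPM and vascular smooth muscle (VSMC) 258 ± 109 CPM (SD, n = 5 libraries each). Neighbours in this lower part of the order were not separated, with 2 to 4 of 5 libraries in the order of the means. Fibroblasts (Fib), with at least 20 cells in KO mix and WT female alone, held 457 CPM of *Mt1* in the 21 cells of KO mix and 1457 CPM in the 22 cells of WT female, and 45.7 and 262 CPM of *Mt2*. In WT female both genes were thus above either collecting duct type and below LOH and DCT.

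*Mt2* followed a similar order at a lower level, with LOH and DCT above the collecting duct types and these above the proximal clusters by their means. It had 368, 258 and 87.1 CPM in LOH of KO female, KO male and KO mix, and 458 and 143 CPM in WT female and WT mix, while PTs held 29.4, 7.28 and 4.73 CPM in the KO libraries and 65.9 and 6.28 CPM in the WT libraries. UMIs of the 3′ end are counted per molecule and do not grow with transcript length, although capture may differ between genes. In these UMIs the *Mt1* to *Mt2* ratio had a median of 8.52 over the 44 combinations of library and cell type with at least 10 *Mt2* UMIs, with a lowest value of 5.55 and a highest of 17.0. Within LOH the UMIs were spread unevenly over cells. The tenth of LOH cells with most *Mt1* carried 47.2%, 43.2% and 34.9% of the *Mt1* UMIs in KO female, KO male and KO mix, and 45.6% and 36.2% in WT female and WT mix.

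**Figure D1:**
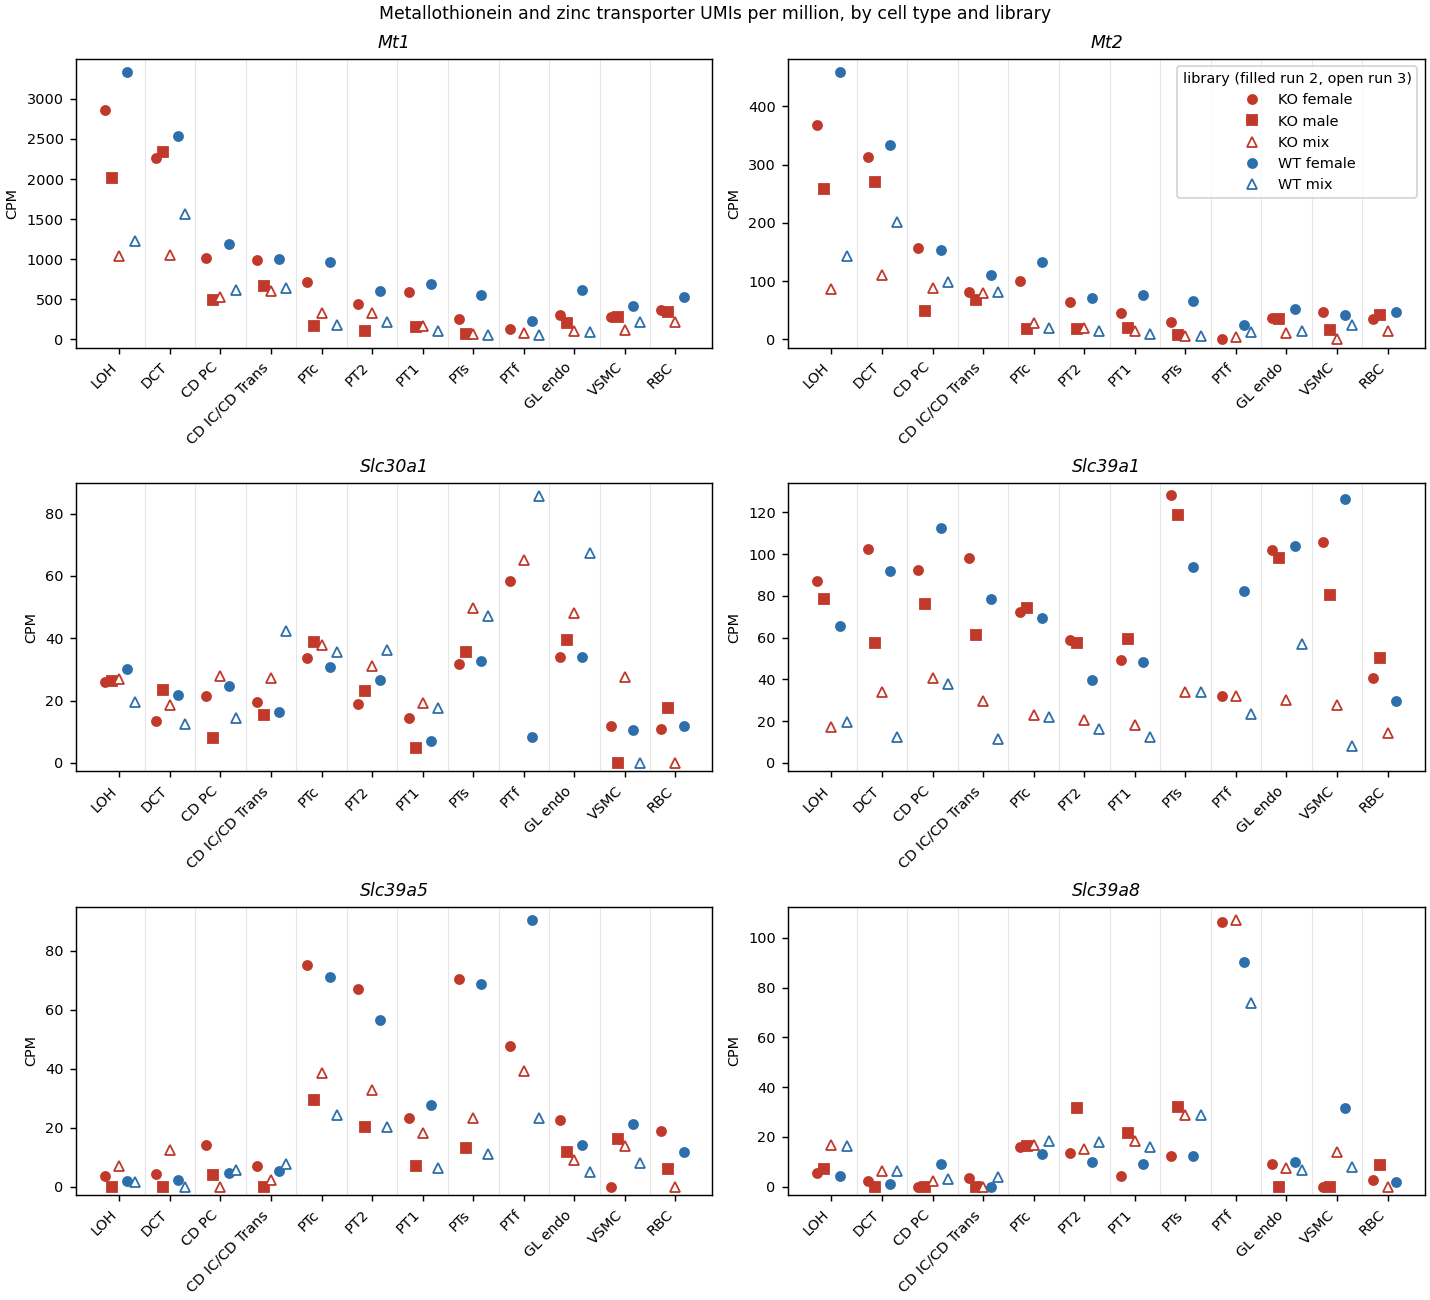
CPM of the 6 genes (vertical axes) in 12 cell types (horizontal axes), with 1 point per library, red for KO, blue for WT, filled for run 2 and open for run 3. *Mt1* and *Mt2* are highest in LOH and DCT, *Slc39a5* in proximal clusters and *Slc39a8* in PTf, and the open points of *Slc39a1* lie below the filled ones in the 10 types that all 5 libraries hold.

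Droplets also catch free RNA, and red blood cells were taken as the type to read its level from. That they hold no mRNA of these genes themselves was not tested, so the level in RBC may overstate free RNA. RBC carried 367, 342 and 212 CPM of *Mt1* in KO female, KO male and KO mix and 523 CPM in WT female, with 11 RBC in WT mix, too few to use. LOH, DCT and both collecting duct types exceeded this level in 4 of 4 libraries, both in CPM and in UMIs per cell. PTc did so in 3 of 4 by CPM and 4 of 4 by UMIs per cell, and PTs in 1 of 4 and 2 of 4. A *Mt1* UMI was found in 95%, 93.7% and 79.6% of LOH cells of KO female, KO male and KO mix and in 97.2% and 79.1% of those of WT female and WT mix. In RBC the share was 49.2%, 43.8% and 19.5% in the 3 KO libraries and 52.6% in WT female. Depth differed, with a median of 2010.0 to 3881 UMIs per LOH cell and 1356 to 2119 per RBC of the libraries used, but with each cell thinned to 1000 UMIs the share was still 59.1% to 87.7% in LOH and 17.1% to 36.3% in RBC. *Mt1* in PTs of KO male and KO mix, at 0.664 and 0.362 UMIs per cell beside 0.725 and 0.366 in RBC, was not above this level.

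The zinc carriers had other patterns. *Slc39a5* was concentrated in proximal clusters, with 75.2, 29.3 and 38.5 CPM in PTc of KO female, KO male and KO mix and 71.1 and 24.4 CPM in WT female and WT mix. PT2 averaged 39.2 ± 21.5 CPM and PTs 37.3 ± 29.8 CPM (SD, n = 5 each), with PT2 the higher in 3 of 5 libraries. PTf averaged 50.2 ± 28.7 CPM (SD, n = 4 libraries), and PT1 was lower at 16.5 ± 9.58 CPM (SD, n = 5). LOH held 18 *Slc39a5* UMIs in all 5 libraries together, and averaged 2.82 ± 2.65 CPM. *Slc39a8* was highest in PTf, a small proximal cluster that 4 libraries held with at least 20 cells, at 106 and 107 CPM in KO female and KO mix and 90.4 and 73.9 CPM in WT female and WT mix. The cluster Juxt ldl LOH, which carried the markers of the descending thin limb, had 104 CPM of *Slc39a8* in KO mix and 60.9 CPM in WT mix. In PTs the gene averaged 22.9 ± 9.70 CPM, and in CD IC/CD Trans 1.49 ± 2.04 CPM (SD, n = 5 each).

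The remaining carriers were broad. *Slc30a1* averaged 44.55 ± 13.97 CPM in GL endo, 39.4 ± 8.39 CPM in PTs, 35.3 ± 3.31 CPM in PTc and 25.8 ± 3.91 CPM in LOH (SD, n = 5 each). GL endo was above PTs in 4 of 5 libraries and PTs above PTc in 3 of 5, while each of them was above LOH in 5 of 5 without overlap. PTf held 58.4 and 65.2 CPM in KO female and KO mix and 8.22 and 85.6 CPM in WT female and WT mix. *Slc39a1* averaged 81.7 ± 45.4 CPM in PTs and 37.6 ± 20.9 CPM in PT1, the highest and lowest of the 10 types that all libraries held, and the spread over libraries exceeded the steps between neighbouring types. Fib held 91.5 CPM of *Slc39a1* in KO mix and 299 CPM in WT female, from 4 and 33 UMIs, above every other type with at least 20 cells in either library. Free RNA, as read in RBC of KO female, KO male, KO mix and WT female, came to 10.9, 17.7, 0 and 11.9 CPM for *Slc30a1*, and to 40.7, 50.2, 14.1 and 29.7 CPM for *Slc39a1*. It came to 19.0, 5.90, 0 and 11.9 CPM for *Slc39a5* and to 2.72, 8.85, 0 and 1.98 CPM for *Slc39a8*. *Slc39a5* exceeded the RBC level in 4 of 4 libraries in PTc, PT2, PTs and GL endo by CPM and by UMIs per cell, with 12.5 ± 6.61 CPM in GL endo (SD, n = 5), and in 1 of 4 in LOH and DCT.

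Across the 12 cell types held by enough libraries, *Mt1* and *Mt2* followed each other with a Pearson r of 0.98 on the log2(CPM + 1) scale, and *Slc39a5* and *Slc39a8* with 0.82. *Mt1* ran opposite to *Slc39a5*, with r of -0.81. The points share libraries and depth, and these values are descriptions. Among 8836 genes of at least 20 CPM in 1 type or more, the profile closest to that of *Mt1* was *Mt2*, then *Spp1* (0.95), which encodes osteopontin, and *Prps2* (0.95). For *Mt2* they were *Mt1*, *Spp1* (0.96) and *Rnf212b* (0.95), for *Slc39a5* *St8sia1* (0.98), *Amn* (0.98), which encodes the partner of cubilin in protein reabsorption, and *Acnat1* (0.98), and for *Slc39a8* *Fgf1* (0.94), *Por* (0.94) and *Tmem189* (0.94). *Slc30a1* was closest to *Lman2* (0.97), *Sec24c* (0.92) and *Mgat1* (0.92), which act in the secretory pathway, and *Slc39a1* to *Tmem128* (0.89), *Stam2* (0.86) and *Gusb* (0.85).

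Knockout was compared with wild type to ask whether loss of *Fame* changes zinc handling, and none of the 6 genes passed the test. Over all cells, *Mt1* stood at 821, 544 and 309 CPM in KO female, KO male and KO mix, against 1141 and 241 CPM in WT female and WT mix. The KO libraries lay within the range of the WT libraries, at a log2 fold change of -0.21 (SE 0.75). In sums over all cells, fewer cells of a type and less RNA per cell cannot be told apart. *Mt2* had 104, 66.1 and 28.3 CPM in the KO libraries, against 147 and 28.7 CPM in the WT libraries, at a log2 fold change of -0.30 (SE 0.83). *Slc30a1* had 27.3, 29.7 and 37.7 CPM in the KO libraries, against 27.8 and 37.4 CPM in the WT libraries. The importers overlapped between genotypes as well. *Slc39a1* had 93.0, 93.2 and 29.1 CPM in KO libraries, against 82.7 and 27.2 CPM in WT libraries. *Slc39a5* had 48.6, 11.03 and 21.3 CPM in KO libraries, against 43.1 and 11.9 CPM in WT libraries, with the lowest value in KO male. *Slc39a8* had 11.7, 21.4 and 24.5 CPM in KO libraries, against 11.2 and 21.1 CPM in WT libraries.

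Of 56 tests of the 6 genes, over all cells and within 11 cell types, 0 passed an adjusted p of 0.05 in edgeR's quasi-likelihood test, and 0 had an unadjusted p below that value. No other gene was called either, with 0% of 13654 genes over all cells and 0% in each of the 11 cell types. Over all cells 12 genes had an unadjusted p below 0.05, far fewer than a share of 0.05 of the genes. The fit has no term for the run, and the comparison of runs below called 23.2% of genes over all cells. With so few low p-values, the absence of calls says little about whether a gene changed. DESeq2 and limma-voom called 0 genes too in the 6 fits for which their counts of genes were kept. The standard error of the *Mt1* difference was 0.75 on the log2 scale over all cells and 0.51 in LOH in this fit, which has no term for the run. With run as a block *Mt1* stood at -0.213 over all cells and -0.341 in LOH and was not called either (adjusted p = 1.0 in both, edgeR). *Mt1* was estimated below 0 in 12 of 12 fits and *Mt2* in 10 of 10, between -1.14 and -0.05 and between -1.31 and -0.23. These fits share libraries, and the sign turned with a single library: over all cells *Mt1* stood at 1.31 without WT female and at 0.08 without KO mix. An exact two-sided permutation test of the all-cell level over the 5 libraries gave p = 1.0 for *Mt1*, 0.9 for *Mt2*, 0.8 for *Slc30a1*, 0.5 for *Slc39a1*, 1.0 for *Slc39a5* and 0.5 for *Slc39a8*, where 0.1 is the smallest p possible.

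**Figure D2:**
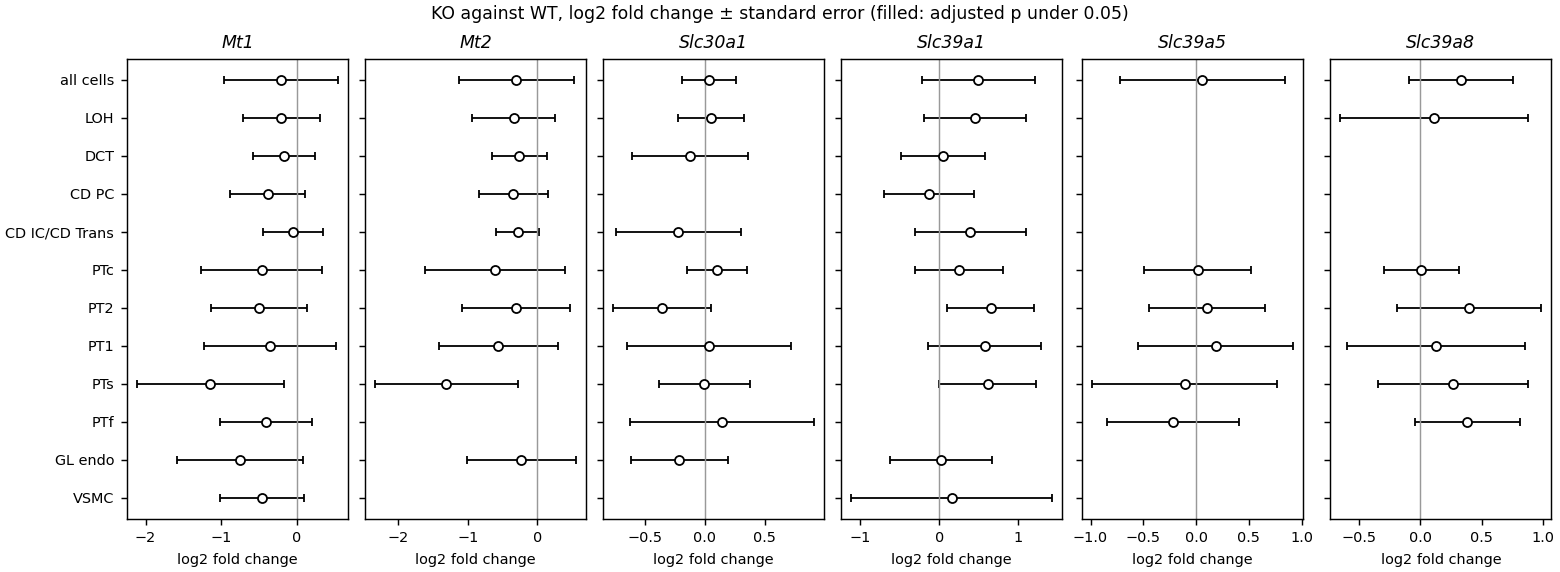
Log2 fold change of KO against WT (horizontal axes) for the 6 genes, with the standard error, over all cells and in 11 cell types (vertical axis), where the gene passed the filter on low counts. Filled points would mark an adjusted p under 0.05, and 0 of the 56 points are filled.

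Male and female cells shared a library in KO mix and WT mix, so sex could be compared there within a run. A cell was called male with at least 1 UMI of *Ddx3y*, *Eif2s3y*, *Kdm5d* or *Uty* and none of *Xist*, and female the other way round. In the single-sex libraries this gave 0 wrong calls, but these hold 1 sex and cannot show wrong calls from free RNA of the other. The rule gave 425 male and 1445 female cells in KO mix, and 800 male and 378 female cells in WT mix. UMIs of both kinds were found in 75 cells of KO mix and 39 of WT mix, and neither kind in 1622 and 2137 cells. Cells with both or neither were left out. In PTc, *Mt1* was at 92.9 CPM in male and 447 CPM in female cells of KO mix, and at 165 CPM in male and 440.1 CPM in female cells of WT mix. Male cells were lower in both libraries, at a log2 fold change of -1.76 (SE 0.15, adjusted p = 2.36e-27 in edgeR's quasi-likelihood test with the library as a block). Of 4363 genes in this fit 4.81% were called. *Mt2*, at 8.99 and 38.3 CPM in male and female PTc cells of KO mix and 17.3 and 41.9 CPM in those of WT mix, was lower in male cells too, at -1.58 (SE 0.48, adjusted p = 0.0258 in edgeR). It rests on 3 and 50 UMIs in KO mix and 9 and 10 UMIs in WT mix, and did not pass with limma-voom (adjusted p = 0.198) or without the filter on low counts (adjusted p = 0.102). Male PTc cells held 0.517 and female ones 2.16 *Mt1* UMIs per cell in KO mix, beside 0.366 in RBC. By CPM the male cells, at 92.9, were below the 212 CPM of RBC in KO mix, and the female cells, at 447, above it. With 2 libraries a gene has little spread of its own in such a fit, which borrows it from other genes. The p-values between male and female cells, here and below, may therefore reflect little more than counting error. For *Mt1* in PTc the male to female ratio was 0.208 in KO mix and 0.376 in WT mix.

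A difference of *Mt1* in the same direction was seen in PT2 and PTs, with calls that depended on the method, but not in both libraries of PT1. In PT2 it was at 144 CPM in male and 359 CPM in female cells of KO mix and at 112 and 496 CPM in WT mix, at a log2 fold change of -1.69 (SE 0.35, adjusted p = 1.64e-04 in edgeR, 3.95% of genes called), with 19 female cells in WT mix. This call was lost with DESeq2 (adjusted p = 0.999) and without the filter on low counts (adjusted p = 0.63). In PTs it was at 55.9 CPM in male and 105 CPM in female cells of KO mix and at 53.0 and 97.8 CPM in those of WT mix, at -0.75 (SE 0.21, adjusted p = 0.00382 in edgeR, 17% of genes called). These PTs cells held 0.364 and 0.507 *Mt1* UMIs per male and female cell of KO mix, near the 0.366 of RBC, and the PTs call was lost with DESeq2 (adjusted p = 0.781) and in cells of at most 25% mitochondrial UMIs (adjusted p = 0.624). In PT1, with 7 female cells in WT mix, the difference did not pass, at -1.25 (SE 0.54, adjusted p = 0.308 in edgeR, 2.72% of genes called), and the libraries went opposite ways, at 76.1 CPM in male and 276 CPM in female cells of KO mix and 209 and 158 CPM in those of WT mix.

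Outside the proximal tubule the order varied, and CD PC, DCT and GL endo were not tested. Male cells of CD PC had 429 and 434.5 CPM of *Mt1* in KO mix and WT mix, and female cells 495 and 671 CPM. In DCT male cells had 1178 and 1316 CPM, and female cells 930 and 839 CPM. In GL endo the libraries went opposite ways. In LOH the order was not the same as in PTc. *Mt1* was at 1028 CPM in male and 955 CPM in female cells of KO mix and at 1559 CPM in male and 953 CPM in female cells of WT mix, at a log2 fold change of 0.29 (SE 0.16, adjusted p = 0.997 in edgeR, 0.36% of genes called). The male to female difference in PTc less that in LOH was -2.07 (SE 0.23, adjusted p = 5.42e-16 by an interaction term in edgeR, 0.625% of 4479 genes called), and in PTs less that in LOH it was -1.06 (SE 0.25, adjusted p = 0.00246, 2.07% of 6194 genes called). For *Mt2* the PTc difference less that in LOH was -2.15 (SE 0.61, adjusted p = 0.0598). With at least 2 UMIs required for a sex call, *Mt1* in LOH stood at -0.196, and neither interaction passed (adjusted p = 0.743 for PTc and 0.787 for PTs). The summed LOH markers in PTc were 123 CPM in male and 276 CPM in female cells of KO mix and 223 and 189 CPM in those of WT mix. At the ratio of *Mt1* to these markers within LOH, they would carry 5.74 to 12.9 CPM of *Mt1* in PTc. In PTs the same arithmetic gave 5.4 to 18.9 CPM, where the counted *Mt1* was 53.0 to 105 CPM. These values cover RNA from LOH alone, and RBC of KO mix held 212 CPM of *Mt1*. The part of free RNA in the difference between the sexes was not tested. The LOH test and the interactions were added after the PTc values were seen.

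Of the carriers, *Slc39a5* was the one called between the sexes. In PTs it was at 3.81 CPM in male and 45.7 CPM in female cells of KO mix, and at 8.51 CPM in male and 43.5 CPM in female cells of WT mix. These rest on 3 and 62 UMIs in KO mix and 9 and 16 UMIs in WT mix. The log2 fold change was -2.69 (SE 0.40, adjusted p = 6.61e-10 in edgeR), in a fit where 17% of 6760 genes were called. In PTc it was at 20.98 CPM in male and 45.2 CPM in female cells of KO mix but at 34.6 and 16.8 CPM in those of WT mix, so the libraries went opposite ways, and the difference did not pass (-0.31, SE 0.41, adjusted p = 0.851 in edgeR, 4.81% of genes called). *Slc30a1* in PTs was at 62.3 CPM in male and 44.2 CPM in female cells of KO mix and at 51.1 and 40.8 CPM in those of WT mix, at 0.59 (SE 0.24, adjusted p = 0.0807 in edgeR). *Slc39a1* and *Slc39a8* did not pass in PTs, at 0.32 (SE 0.28) and -0.25 (SE 0.31).

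**Figure D3:**
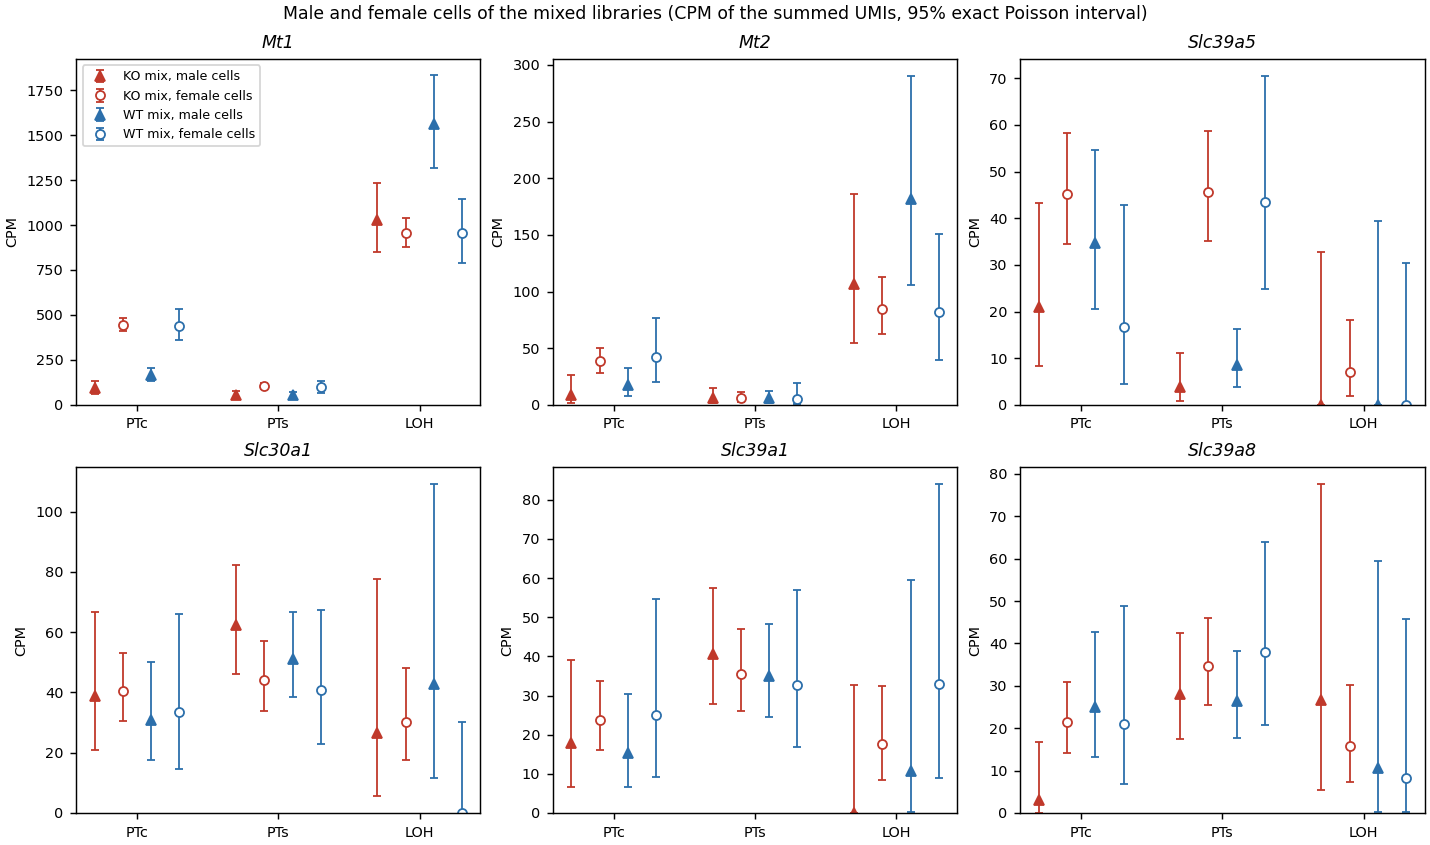
CPM (vertical axes) of the 6 genes in male cells (filled triangles) and female cells (open circles) of KO mix (red) and WT mix (blue), in PTc, PTs and LOH, with 95% exact Poisson intervals that cover counting error only. Male points of *Mt1* lie below the female ones of the same library in PTc and PTs and above them in LOH, and male points of *Slc39a5* lie below in PTs.

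The libraries of run 2 hold 1 male library, KO male, which can be set beside KO female and WT female. In PTc, KO male had 171 CPM of *Mt1*, against 709 and 961 CPM in KO female and WT female, and in DCT 2336 CPM, against 2258 and 2541 CPM. In LOH it had 2009 CPM, against 2863 and 3333 CPM in KO female and WT female, the opposite order to that of male and female LOH cells in the mixed libraries. *Mt1* was below both female libraries in 9 of 10 cell types, DCT being the exception, *Mt2* in 10 of 10 and *Slc39a5* in 9 of 10, whereas *Slc30a1* was below both in 4, *Slc39a1* in 5 and *Slc39a8* in 2 of 10. The types share the same libraries, and such counts were not made over all genes. For *Slc39a5* they include LOH, DCT and CD IC/CD Trans, with 0 CPM in KO male and at most 7.15 CPM in the female libraries. Those values lie below the 19.0 and 11.9 CPM in RBC of KO female and WT female. *Slc39a5* in PTs was at 13.0 CPM in KO male, against 70.3 and 68.8 CPM in KO female and WT female. With 1 male library these are values without a test.

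Counts over other gene lists stand beside 17% of all genes called in PTs and 4.81% in PTc. In PTs, 1 of 5 tested ZnT exporters rose in male cells, *Slc30a2*, which fills vesicles with zinc, at 44.5 CPM in male and 5.90 CPM in female cells of KO mix and 53.9 and 10.9 CPM in WT mix (log2 fold change 2.84, SE 0.39, adjusted p = 1.07e-11 in edgeR). Of 5 tested ZIP importers 1 was called, *Slc39a10*, at 1.17 (SE 0.39, adjusted p = 0.0207), with 33.1 CPM in male and 11.8 CPM in female cells of KO mix but 18.0 and 19.0 CPM in WT mix. No copper gene of 6 tested passed in PTs or PTc. Of the 7 tested genes that answer to glucocorticoids, 2 were higher in male PTs cells, *Dusp1* at 1.82 (SE 0.16, adjusted p = 1.03e-28) and *Errfi1* at 0.72 (SE 0.11, adjusted p = 6.61e-10), and 1 was lower, *Sgk1* at -2.22 (SE 0.23, adjusted p = 1.30e-19), and in PTc *Dusp1* was higher and *Sgk1* lower among 6 tested. Genes induced by dissociation were higher in male PTs cells for 10 of 17 tested and in male PTc cells for 4 of 14, *Dusp1*, which is on both lists, and *Fosb* among them in each. The medians over the tested genes were 0.449 in PTs and 0.741 in PTc, beside -0.004 over all genes in either. Their part in the metallothionein difference was not tested.

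The 6 genes were also compared between the sequencing runs, which cannot be told apart from the pooling of the sexes. This comparison was added after the levels were seen and has genotype as a term. Over all cells, *Slc39a1* averaged 89.6 CPM in run 2 and 28.1 CPM in run 3, at a log2 fold change of 1.72 (SE 0.14, adjusted p = 0.00397 in edgeR, 23.2% of genes called), and its values in the 3 libraries of run 2 were above both of run 3 in 10 of 10 cell types. *Mt1* averaged 835 CPM in run 2 and 275 CPM in run 3, at 1.68 (SE 0.31, adjusted p = 0.024), and *Mt2* 106 and 28.5 CPM, at 1.99 (SE 0.27, adjusted p = 0.0109). The runs did not overlap in 5 of 10 cell types for *Mt1* and in 5 of 10 for *Mt2*. How often the runs do not overlap over all genes was not counted, so such counts of cell types, here and below, only describe these genes. In LOH, where 24.1% of genes were called, *Slc39a1* was higher in run 2 at 1.92 (SE 0.24), *Mt1* at 1.18 (SE 0.13) and *Mt2* at 1.63 (SE 0.15), and *Slc39a8* lower at -1.69 (SE 0.42), each past the threshold. *Slc30a1* was lower in all 3 libraries of run 2 in 5 of 10 cell types, with 1 of 10 tests called, in PTf. Over all cells and 11 cell types 22 of 56 tests were called, 9 of 11 for *Slc39a1*, 6 of 12 for *Mt1*, 5 of 10 for *Mt2*, 1 of 7 for *Slc39a8* and 0 of 6 for *Slc39a5*. The share of all genes called ran from 0.648% in PTs, 3.69% in PT2 and 8.12% in PTc to 14.2% in VSMC, 15.9% in PT1, 16.8% in DCT, 22.6% in PTf, 22.9% in CD PC, 24.4% in CD IC/CD Trans and 26.8% in GL endo.

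Over all cells none of the 3 members remained called without KO mix, WT female or WT mix, where 0 genes of the whole table were called, and *Mt1* was lost without KO female too (adjusted p = 0.0842). The log2 fold changes with a library left out ran from 1.615 to 1.811 for *Slc39a1*, from 1.716 to 2.373 for *Mt2* and from 1.268 to 2.258 for *Mt1*. In LOH *Slc39a1*, *Mt1* and *Mt2* passed with each library left out. Counts over the lists stand beside 23.2% of all genes called over all cells, 1433 higher and 1734 lower in run 2. Dissociation genes moved the other way, with 15 of 18 lower in run 2 and 0 higher, at a median of -2.09 beside 0.006 over all genes, *Jund* at -3.22 (SE 0.15, adjusted p = 0.0031) and *Hspa1b* at -3.43 (SE 0.16, adjusted p = 0.0031). Haemoglobin genes of red blood cells were higher for 3 of 5, at a median of 3.48. Of the copper genes 3 of 9 were higher and 2 lower, and of the glucocorticoid genes 2 of 10 were higher and 3 lower. The part of any of these lists in the values of the 6 genes was not tested. Of the other zinc genes, 1 of 2 tested metallothionein and sensing genes was called higher, *Mt3* at 1.31 (SE 0.28, adjusted p = 0.025), 0 of 7 ZnT exporters, and 2 of 8 ZIP importers, *Slc39a9* at 0.75 (SE 0.14, adjusted p = 0.02) and *Slc39a7* at 0.68 (SE 0.14, adjusted p = 0.0232).

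**Figure D4:**
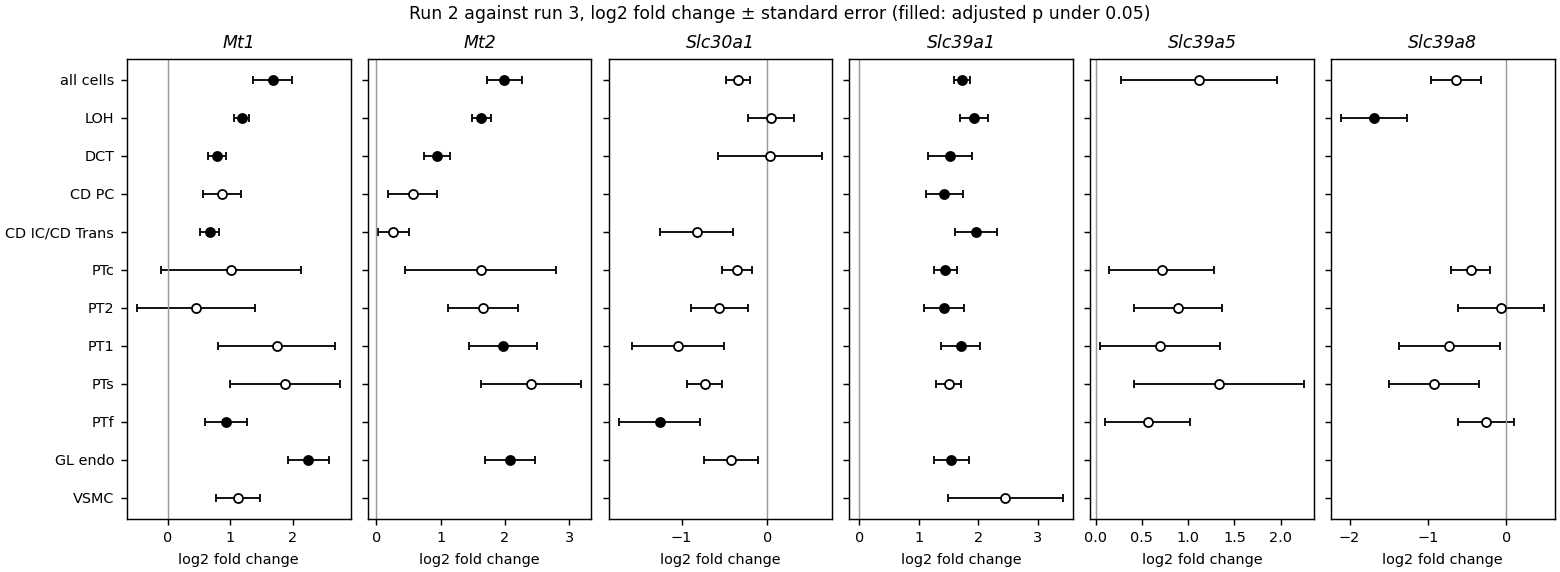
Log2 fold change of run 2 against run 3 (horizontal axes) for the 6 genes, with the standard error, over all cells and in 11 cell types (vertical axis), filled where the adjusted p was under 0.05. *Slc39a1* lies above 0 in 11 of 11 fits and *Mt1* in 12 of 12, while *Slc39a8* lies below 0 in 7 of 7.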

How the data were processed

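Kidney cells were profiled with 10x 3′ v3 droplets. Per the labels and methods, the authors aligned and counted with Cell Ranger 4.0.0 on mm10 and assigned cell types with Seurat 3.2.2.9001. The deposited counts are raw UMIs per gene and cell, for cells of at least 1000 UMIs and at most 50% mitochondrial UMIs, and the mitochondrial percentage per cell was deposited with them. The deposited doublet score, a fraction from Scrublet, was made by the authors before filtration, and no further doublets were removed. The authors' embedding was not used.

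UMIs were summed per library and cell type where at least 20 cells were present (sex sums had no such minimum). Sums were tested with edgeR 4.0.16 (quasi-likelihood, robust, TMM, default expression filter, Benjamini-Hochberg adjustment over all genes of a fit, threshold 0.05) in R 4.3.3. Exact permutation tests used numpy 2.4.6, exact intervals scipy 1.17.1 and figures matplotlib 3.10.9. DESeq2 1.42.0, limma 3.58.1 (voom), RLE, other filters on counts and cells, blocks and left-out libraries were alternatives. Totals ran from 9791091 to 15950717 UMIs per library. Intervals are exact Poisson at 95% and cover counting error only. The fits were also run on simulated counts with a shared mean profile and a fixed spread. The simulated KO data held no difference between runs, so they do not show how the KO fit behaves in these libraries.

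Named were the 6 genes, the 3 genes with the most similar profile over cell types for each (at least 20 CPM in a type), and up to 3 genes of lowest p from each list: other metallothioneins and zinc sensing, ZnT exporters, ZIP importers, copper handling, glucocorticoid response, dissociation response and haemoglobin. Members and lists were chosen with earlier results of these data known. The comparison of runs, the LOH sex test and the interactions were added after the data were seen.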

Additional observations from a re-analysis of the deposited data

Results flagged for a closer look

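The male to female difference of *Mt1* in the mixed libraries differed between cell types by an interaction term in edgeR. It was -2.07 (SE 0.23, adjusted p = 5.42e-16) in PTc less LOH and -1.06 (SE 0.25, adjusted p = 0.00246) in PTs less LOH. Male cells were lower in PTc and PTs in 2 of 2 libraries and higher in LOH in 2 of 2. With at least 2 UMIs for a sex call, *Mt1* in LOH stood at -0.196 and neither interaction passed (adjusted p = 0.743 and 0.787 in edgeR), and the PTs less LOH difference did not pass with DESeq2 (adjusted p = 0.202). *Mt1* in PTs of KO mix was not above the RBC level, and the PTs difference itself was lost with DESeq2 (adjusted p = 0.781). In run 2, LOH of KO male was below that of both female libraries, at 2009 CPM against 2863 CPM in KO female and 3333 CPM in WT female.

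The KO against WT difference of *Mt1* over all cells had opposite signs in the 2 runs. In run 2 the log2 ratio was -0.475 for KO female and -1.069 for KO male over WT female, and in run 3 it was 0.36 for KO mix over WT mix. This difference was not tested. KO mix held 22.7% male cells among those called and WT mix 67.9%, so the sex make-up moved with the genotype in run 3.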

How the results depend on the processing

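For KO against WT, 0 genes passed in edgeR, and the count moved only under blocks. With sex composition as replicate block (KO male, without a WT partner, takes no part in the difference) 23 genes passed in PTc, 11 in PT1, 14 in PT2 and 8 in LOH, and with run as replicate block 2 in LOH. *Mt1* turned to 0.094 over all cells with limma-voom and to 0.187 in PTc with the sex block. With a library left out, *Mt1* ran from -0.949 to 1.309 over all cells, -1.182 to 1.045 in PTc, -0.705 to 0.609 in LOH and -0.391 to 0.146 in DCT, and *Mt2* from -1.061 to 1.312, -1.681 to 1.197, -0.894 to 0.653 and -0.509 to 0.099 in the same order. Signs turned without WT female in these 4, and without KO mix in all but PTc.

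Between male and female cells, 1151 genes passed in PTs, 210 in PTc, 33 in PT1, 50 in PT2 and 5 in LOH. DESeq2 gave 230 in PTs, 42 in PTc, 1 in PT1, 1 in PT2 and 0 in LOH. At least 20 counts in every sum gave 618, 57, 18, 3 and 2 in that order. At most 25% mitochondrial UMIs gave 359, 20, 1, 19 and 1, and at least 2 UMIs for the sex call 692, 82, 3, 12 and 1. At least 2000 UMIs per cell gave 8 in PT1, 6 in PT2 and 3 in LOH, no filter on low counts 1 in PT1 and 6 in PT2, and limma-voom 1 in PT1. *Mt1* in LOH turned to -0.196 with 2 UMIs for the call. *Mt1* in PTc and *Slc39a5* in PTs passed under each alternative run, except that the minimum of 20 counts removed *Slc39a5*. Run 2 against run 3 gave 3167 genes over all cells, and 0 to 5273 with a library left out. The causes were not tested.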
